A study of Homo sapiens with 5 samples.

Results

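CUT&RUN for the retinoblastoma protein Rb in ZR-75-1 cells gave 386 regions that were bound after abemaciclib, lay outside the promoter windows of the GENCODE annotation and carried the base composition of a CpG island. Overlapping peaks from the 4 Rb lists (1 bp or more in common) were joined into regions, and each region was classed by the libraries that held a peak in it. A region was called gained when both abemaciclib libraries and neither DMSO library had a peak there, and distal when it stayed clear of every promoter window, drawn from 2000 bp before to 500 bp after each GENCODE transcription start site (TSS). The 386 distal CpG-island regions were chosen by these calls and by the DNA in the 200-bp window centred on the summit of the highest abemaciclib replicate 1 peak, which had to be at least 50% GC with an observed/expected CpG ratio of at least 0.6. That ratio sets the number of CG dinucleotides in a window against the number its C and G content would give by chance. Of 14810 merged regions on chromosomes 1 to 22 and X, 8607 were gained (58.1%), and of the 2281 distal ones 779 were gained (34.2%). The distal CpG-island regions therefore made up 386 of 779 gained distal regions, a share of 49.6% with a Wilson 95% interval of 46.1 to 53.1% that covers counting error only. Since peak presence and sequence chose them, their gain and their CpG content are descriptions and not findings.

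Rb restrains the cell cycle by binding E2F transcription factors at their target genes, and phosphorylation by CDK4 and CDK6 releases it. Abemaciclib blocks these kinases, so that Rb stays in its hypophosphorylated, E2F-binding form. CpG islands are stretches of GC-rich DNA that have kept their CG dinucleotides because they escape methylation in the germ line. Most lie at gene promoters, but others lie within genes or between them, where some serve as unannotated or tissue-restricted promoters and others as enhancers.

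ZR-75-1 is an established line of luminal, oestrogen receptor-positive breast cancer cells. The parental line was treated for 4 days with 500 nM abemaciclib or with an equal volume of DMSO, with Rb profiled in 2 libraries of each treatment, and the 1 IgG2a library came from DMSO-treated cells only. The DMSO Rb lists held 1438 and 2582 peaks, the abemaciclib Rb lists 13960 and 12234, and the IgG2a list 589. The lists give no read totals, and the lowest local background, in fragments per base, ran from 0.521 to 0.677 over the 4 Rb libraries, with DMSO at 0.649 and 0.677 and abemaciclib at 0.656 and 0.521. All results come from 1 cell line, and regions are not replicates of a treatment, so shares of regions stand side by side with Wilson 95% intervals and without a test.

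The sequences of the best ranked members show how the E2F sites and CpGs sit in such windows. All windows are 200 bases of the GRCh38 plus strand, named by the protein-coding gene with the nearest TSS. The first pair held an E2F pattern, meaning TTNNCGC with a C or G at each N, on either strand, and the pattern is in capitals. It began at base 76 in the window near CTDSP2 and at base 26 in the window near NARF, on the plus strand in both.
CTDSP2 (chr12:57865234-57865433): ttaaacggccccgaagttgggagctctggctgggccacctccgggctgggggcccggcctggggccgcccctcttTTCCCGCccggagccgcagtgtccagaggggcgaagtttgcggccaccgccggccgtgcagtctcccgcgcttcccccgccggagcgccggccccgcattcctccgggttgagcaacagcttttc
NARF (chr17:82497275-82497474): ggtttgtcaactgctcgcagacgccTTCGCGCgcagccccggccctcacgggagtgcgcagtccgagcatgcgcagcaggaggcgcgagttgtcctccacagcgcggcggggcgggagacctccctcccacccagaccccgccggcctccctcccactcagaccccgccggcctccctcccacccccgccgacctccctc

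A second set shows windows of high-ranked members without an E2F pattern, which are not the highest ranked of that kind, and the highest of the regions at BCOR, with every CG dinucleotide in capitals. They carried 14, 23 and 25 CpGs in the order given.
NCF1 (chr7:74788728-74788927): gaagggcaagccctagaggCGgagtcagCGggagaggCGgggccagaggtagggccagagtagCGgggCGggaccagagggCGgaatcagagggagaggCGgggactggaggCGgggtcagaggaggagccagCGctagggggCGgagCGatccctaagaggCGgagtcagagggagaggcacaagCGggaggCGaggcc
YY1 (chr14:100214315-100214514): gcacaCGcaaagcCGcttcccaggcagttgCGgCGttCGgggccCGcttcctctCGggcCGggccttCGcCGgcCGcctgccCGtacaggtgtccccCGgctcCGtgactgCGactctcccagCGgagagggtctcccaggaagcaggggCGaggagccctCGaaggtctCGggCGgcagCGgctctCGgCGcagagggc
BCOR (chrX:40106281-40106480): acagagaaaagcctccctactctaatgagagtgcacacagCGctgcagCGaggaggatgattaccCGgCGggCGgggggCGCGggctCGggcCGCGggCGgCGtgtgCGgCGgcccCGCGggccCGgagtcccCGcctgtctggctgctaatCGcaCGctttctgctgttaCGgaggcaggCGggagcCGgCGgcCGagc

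The CpGs were spaced through these windows and were densest near BCOR, where the ratio was 0.992. The window in an intron of NCF1 is a run of similar short units rich in G, with 102 G and 39 C in 200 bases.

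The third pair shows how fine the sequence threshold was, again with CpGs in capitals. The BTG2 window was the member nearest inside the CpG limit, with a ratio of 0.602, and the C17orf50 window was the gained distal region nearest outside it, with 0.598.
BTG2 (chr1:203327311-203327510): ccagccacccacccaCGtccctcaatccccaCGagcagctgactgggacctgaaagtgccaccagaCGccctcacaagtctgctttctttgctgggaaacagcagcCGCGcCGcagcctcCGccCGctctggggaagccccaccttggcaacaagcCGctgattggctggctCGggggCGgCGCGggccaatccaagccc
C17orf50 (chr17:35764476-35764675): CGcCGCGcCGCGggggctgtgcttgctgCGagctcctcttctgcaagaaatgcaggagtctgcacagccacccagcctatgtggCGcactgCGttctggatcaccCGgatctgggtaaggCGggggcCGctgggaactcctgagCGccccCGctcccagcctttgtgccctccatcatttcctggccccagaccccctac

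Both windows of this pair held 13 CpGs, and they differed in their C and G content, 80 C and 54 G near BTG2 against 75 C and 58 G near C17orf50. BTG2 encodes an antiproliferative protein induced by p53. The region near BTG2 reached 47 and 41 fragments at its summit in abemaciclib replicates 1 and 2, and the one near C17orf50 16 and 11. On the GC axis, the regions next to the limit of 50% were those near ADGRE1 and SLC1A3 inside, both at 50%, and those near DIP2C and ZNF57 outside, both at 49%. Of the 393 gained distal regions that were left out, 293 failed on CpG alone, 9 on GC alone and 91 on both.

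Across the 386 windows, GC content ranged from 50 to 90.5% with a median of 69.5%, and the CpG ratio from 0.602 to 1.56 with a median of 0.806. GC was at least 70% in 188 windows, and the CpG ratio was at least 1 in 55. Close to the limits, 42 members had a ratio under 0.65 and 28 had GC under 55%. When passing 200-bp windows were joined outwards from the summit in steps of 10 bp, the CpG-rich stretch had a median length of 690 bp. It reached at least 500 bp in 299 regions (77.5%, 73.0 to 81.4%), so in the other 87 the island was shorter than that. Of these stretches, 11 of 386 (2.85%, 1.60 to 5.03%) ran into a promoter window, among them the region in the intron of ASCL2. The regions themselves were chosen to stay clear of promoter windows, which favours a low share, so this count is a description.

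**Figure D1:**
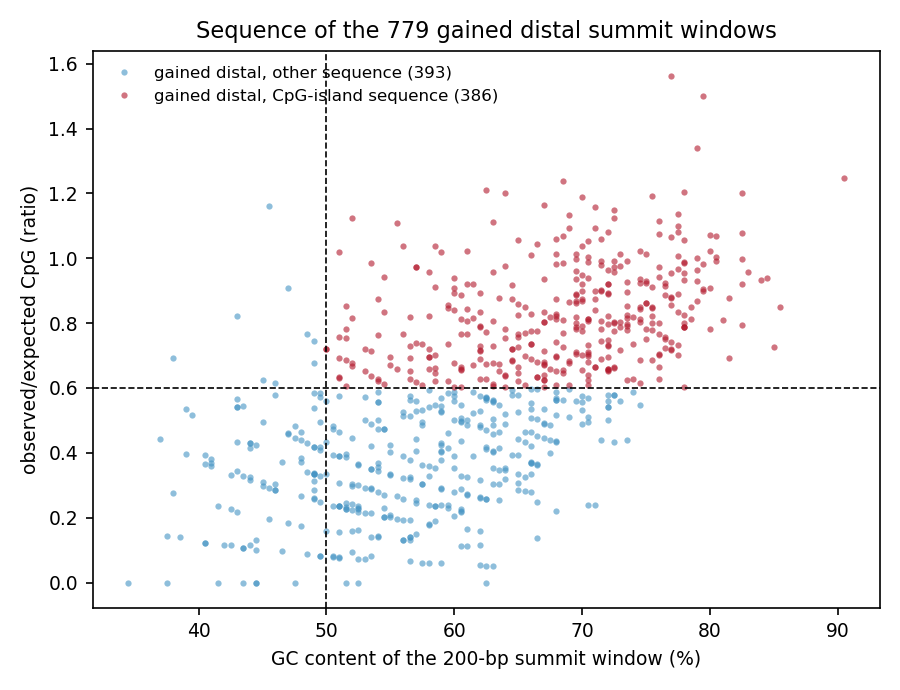
GC content (percent, horizontal) against observed/expected CpG (ratio, vertical) of the 200-bp summit window of each of the 779 gained distal regions, with dashed lines at 50% and 0.6. The 386 distal CpG-island regions (red) fill the upper right up to 90.5% GC, and the 393 others (blue) spread below and to the left with a median ratio of 0.368.

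The summit of the other abemaciclib library was not used to choose the regions, but most of its windows covered part of the same DNA, with the windows of both replicates overlapping in 331 of the 386 members. In replicate 2 the window around the highest summit passed the same rule in 336 of 386 regions (87.0%, 83.3 to 90.0%), against 47 of 393 (11.96%, 9.11 to 15.5%) among the gained distal regions of other sequence. The overlap carries the choice of the members over to these shares. Where the windows did not overlap, 45 of 55 members (81.8%, 69.7 to 89.8%) and 10 of 62 others (16.1%, 9.004 to 27.2%) passed, still within the same merged region. The replicate 2 windows of the members had a median GC of 68.75% and a median CpG ratio of 0.810. The summits of the replicates were a median of 68.5 bp apart and within 100 bp in 256 regions. The 50 regions whose replicate 2 window failed were weaker in both libraries, with a median of 14 and 11 fragments at the summit against 18 and 13 for the 336 that passed.

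The sequence rule passed unequal shares of distal regions with other patterns of peaks. Regions without an abemaciclib replicate 1 peak were scored at the summit of abemaciclib replicate 2 or, failing that, of a DMSO library. The sequence rule passed 241 of 1268 distal regions (19.01%, 16.9 to 21.3%) that had a peak in 1 abemaciclib library alone and no DMSO peak, and 26 of 163 (15.95%, 11.1 to 22.4%) with a peak in 1 DMSO library alone. It passed 25 of the 42 bound in 2 abemaciclib libraries and 1 DMSO library (59.5%, 44.5 to 73.0%) and 18 of the 26 with a peak in all 4 libraries (69.2%, 50.01 to 83.5%). Gained distal regions, at 49.6%, lay above the peaks of a single library, and their interval overlapped with those of the regions bound under both treatments. Gained promoter regions stood higher, at 6759 of 7828 (86.3%, 85.6 to 87.1%).

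Peak height was given by the fragment pileup at the summit, the number of sequenced fragments that cover it, which was solved from the fold enrichment and the p-value in the lists. The members had between 5 and 88 fragments in abemaciclib replicate 1, with a median of 17, and between 5 and 70 in replicate 2, with a median of 13. Fold enrichment over local background had a median of 9.18 in replicate 1 and 7.37 in replicate 2. The pileup was higher in replicate 1 at 314 regions, higher in replicate 2 at 55 and equal at 17, in the same direction as the local background of the libraries. At least 10 fragments in both libraries were found at 265 regions and at least 20 in both at 77, while 39 had under 10 in both. For scale, the weakest peak in each DMSO list had 6 fragments. The values of the DMSO libraries at regions without a DMSO peak are not in the lists, so a region just under the DMSO threshold counts here as unbound.

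**Figure D2:**
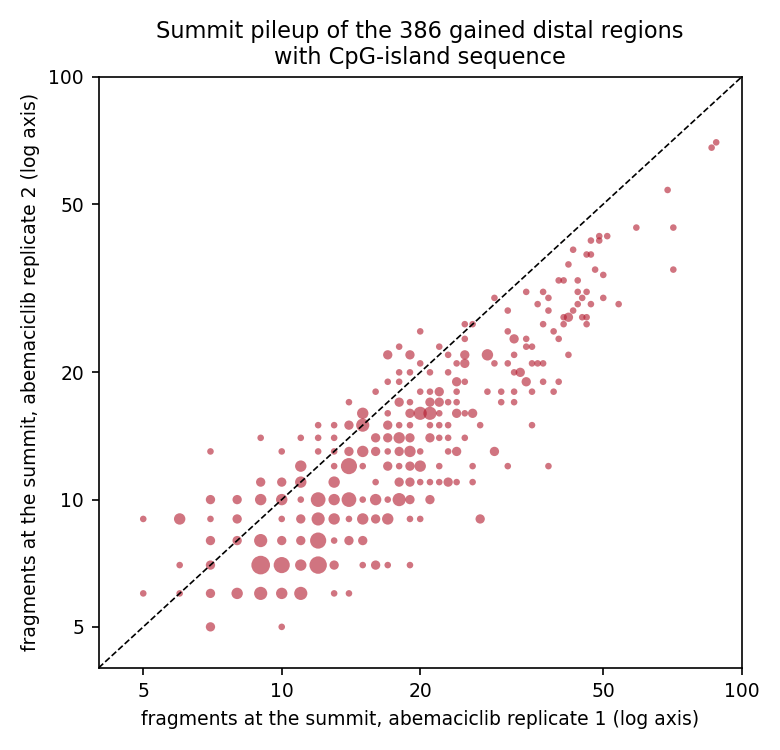
Fragments at the summit of the highest peak in abemaciclib replicate 1 (horizontal) and replicate 2 (vertical), both on log axes, for the 386 distal CpG-island regions, with the area of each point set by the number of regions at that pair of values and the dashed line marking equality. Most points lie under the line (314 regions), and the highest stand at 88 and 70 fragments.

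Ranked within each list by p-value, the members stood between the promoter islands and the other gained distal regions. Their median place was 55.8% from the top in replicate 1 and 65.8% in replicate 2. The 6759 gained promoter regions that pass the same sequence rule stood higher, at 45.5 and 52.2%, and the 393 gained distal regions of other sequence lower, at 69.3 and 75.7%. This order was the same in both libraries, while the ranges between quartiles overlapped, with quartiles of 42.5 and 71.5% for the members in replicate 1 against 29.6 and 62.25% for the promoter islands. The top 25% of the list held 31 members (8.03%) in replicate 1 and 18 (4.66%) in replicate 2, of which 17 were the same regions. It held 3.31 and 2.80% of the other gained distal regions and 18.1 and 13.6% of the promoter islands. All these sets leave out regions with a DMSO peak, which may favour low shares there, so these counts are descriptions. The places in both lists followed each other over the 386 regions (Spearman's rho of 0.797, a description over regions that share libraries and base composition). In width, too, the members came between the sets, with medians of 574.5 and 473 bp against 424 and 377 bp for the other gained distal regions and 839 and 724 bp for the promoter islands.

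**Figure D3:**
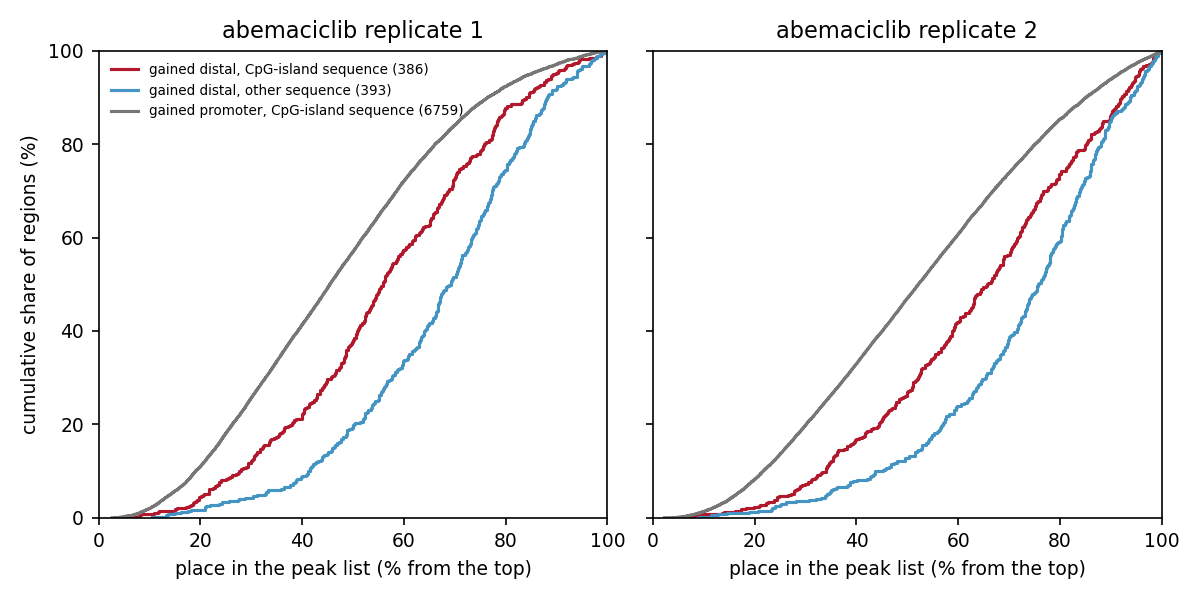
Cumulative share of regions (percent, vertical) by place in the peak list of abemaciclib replicate 1 (left) and replicate 2 (right), as percent from the top by p-value, for the distal CpG-island regions, the gained distal regions of other sequence and the gained promoter regions with CpG-island sequence. In both libraries the red curve runs between the grey and the blue curve, with medians of 55.8 and 65.8% for the members.

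The 15 best ranked members were high in both abemaciclib libraries, with 41 to 88 fragments in replicate 1 and 29 to 70 in replicate 2. Of these, 13 lay over 10 kb from a coding TSS, 8 were intergenic, 6 were intronic and 3 held an E2F pattern, and the replicate 2 window passed the sequence rule in all 15. The region at chr12:57864912-57865742 lay in no gene, 18.6 kb upstream of CTDSP2, which encodes a phosphatase of the RNA polymerase II tail. It reached 88 and 70 fragments in replicates 1 and 2, with folds of 33.3 and 30.6, and no DMSO library had a peak there. The intergenic region at chr8:102810160-102811230, 47.5 kb downstream of AZIN1, an inhibitor of antizyme in polyamine control, had 86 and 68 fragments and the highest folds of all members, 47.9 and 38.8. These were the only members above 80 fragments in replicate 1.

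Next in rank was chr7:74788532-74789111 in an intron of NCF1, a subunit of the phagocyte NADPH oxidase, with 69 and 54 fragments. The reference holds 2 further near-identical copies of this window, so the place of its reads is uncertain. The region at chr17:82496959-82498004, 16.3 kb downstream of NARF, had 71 and 44 fragments. Near YY1, which encodes a zinc finger transcription factor, the region at chr14:100214028-100214874 lay in an intron of a non-coding gene, with 49 and 42 fragments. FOXJ2, a forkhead factor gene, had its region 5.82 kb upstream at chr12:8026402-8027222, with 71 and 35 fragments, the widest gap between replicates in this group.

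The remaining regions of the 15 were more even in height. The region at chr6:36423114-36423918, in an intron of PXT1 and nearest to KCTD20, combined a CpG ratio of 1.20 with 50 and 34 fragments. An intron of ZMIZ1-AS1, 95.1 kb from the TSS of the coactivator gene ZMIZ1, held a region with 43 and 39 fragments. PKDCC, which encodes a secreted tyrosine kinase, and CWC27, a spliceosome component, were the most distant genes of the group. Their regions lay 206.9 kb upstream and 249.1 kb downstream of the TSS and had 42 and 36 fragments and 48 and 35 fragments. The region 25.3 kb upstream of NOTO, a homeobox gene, had 45 and 30. The region 42.2 kb into KDM2B, which encodes a histone demethylase that binds unmethylated CpGs, had 44 and 29 fragments and the highest GC content of the 15, 84.5%. The region 16.2 kb downstream of GNGT2, a G protein subunit gene, had 47 and 38.

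BCOR, which encodes a corepressor that acts with BCL6 and in a Polycomb complex, was the nearest coding gene to 5 members, more than any other gene. It was singled out after this count was seen, although its highest region is also among the 15. That region, chrX:40104866-40107382, lay in an intron 7.21 kb upstream of the nearest coding TSS with 41 and 33 fragments. The other members in the gene, at chrX:40094304-40094894, chrX:40107438-40108073 and chrX:40108578-40110037, were far lower, with 9 and 7, 7 and 5, and 13 and 10 fragments. Together these 4 regions span 15.7 kb, and another, chrX:39688928-39689322, lay 388.9 kb downstream with 14 and 8. Within 10 kb of each other, 24 members fell into 11 clusters, and the one at BCOR was the only cluster of more than 2. In all, 358 coding genes were nearest to a member, and 25 of them to 2 or more.

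The widest members differed in height. They were the region of 2749 bp at chr19:1468844-1471592 in the untranslated region of APC2, with 17 and 19 fragments, the BCOR region of 2517 bp, and the region of 2185 bp at chr1:152109570-152111754 in a coding exon of TCHH, with 44 and 33. APC2 is a relative of the tumour suppressor APC, and TCHH encodes the hair follicle protein trichohyalin. The members farthest from a coding TSS lay near OR11H1 on chromosome 22 (3554 kb), DEFB115 on chromosome 20 (1379 kb) and TMEM132C on chromosome 12 (1101 kb). They had 34 and 19, 49 and 41, and 16 and 9 fragments, and the first of them had 5 near-identical copies elsewhere in the reference. Such copies, of at least 180 aligned bases and 95% identity, were found for 19 members (4.92%, 3.17 to 7.56%) and 8 other gained distal regions (2.04%, 1.04 to 3.97%).

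By position in genes, 178 of the 386 summits lay in no annotated gene (46.1%, 41.2 to 51.1%), 108 in an intron of a coding gene (28.0%, 23.7 to 32.7%) and 39 in an intron of a non-coding gene. Coding exons held 39 (10.1%, 7.48 to 13.5%), untranslated regions 13, exons of non-coding genes 7 and non-coding exons of coding genes 2. Among the gained distal regions of other sequence the make-up differed in introns and exons. Introns of coding genes held 165 of 393 (42.0%, 37.2 to 46.9%) and coding exons 10 (2.54%, 1.39 to 4.62%), with intervals clear of those of the members. The intergenic share was 38.93% there (34.2 to 43.8%), and the intervals overlapped. The 39 members in coding exons had a higher median GC, 72%, than the 108 in introns of coding genes, 69.25%. The part of base composition in these differences was not tested.

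Distances to coding genes were close in both sets. The summit lay within 10 kb of a coding TSS in 165 members (42.7%, 37.9 to 47.7%) and in 169 of the 393 others (43.0%, 38.2 to 47.9%). The median distance was 12.2 kb for members and 14.3 kb for the others, and 27 and 31 lay over 100 kb away. Of those within 10 kb, 107 members and 102 of the others were on the downstream side of the TSS. Median heights were 15 and 12 fragments within 10 kb and 18 and 13 beyond. The most gene-dense chromosomes carried many members, with 75.1 per 100 Mb on chromosome 19 and 38.4 on chromosome 17, but the other gained distal regions were placed alike: chromosomes 16, 17, 19 and 22 held 28.0% of the members and 29.3% of the others.

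**Figure D4:**
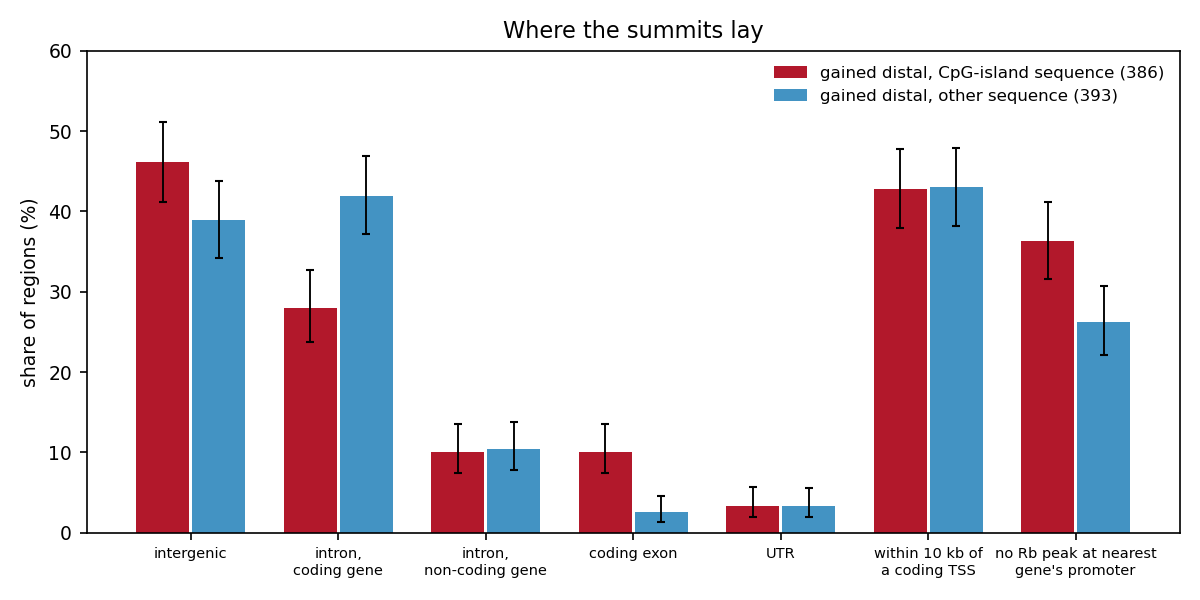
Share of regions (percent, vertical) by where the summit lay and by the state of the nearest coding gene's promoter, for 386 distal CpG-island regions (red) and 393 gained distal regions of other sequence (blue), with Wilson 95% intervals as bars. Coding exons held 10.1% against 2.54%, introns of coding genes 28.0% against 42.0%, and the shares within 10 kb of a coding TSS were 42.7 and 43.0%.

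The nearest coding gene of each member was classed by the Rb peaks in its promoter windows. No library had a peak in a promoter window of that gene for 140 members (36.3%, 31.6 to 41.2%), against 103 of the 393 others (26.2%, 22.1 to 30.8%). A gained promoter was found for 177 members (45.9%, 40.9 to 50.8%) and for 195 of the others (49.6%, 44.7 to 54.5%). A promoter bound in all 4 libraries was found for 20 members (5.18%, 3.38 to 7.87%) and 36 of the others (9.16%, 6.69 to 12.4%). In both classes the intervals of the sets overlapped. Over all 19618 coding genes, 39.5% had a gained promoter region, 6.49% a region in all 4 libraries and 40.6% no peak. The intervals of the members covered these shares for no peak and for all 4 libraries, and lay above that for a gained promoter. The interval of the others also lay above the share for a gained promoter, so this was not particular to the members. The heights of the members were alike in both situations, with medians of 16 and 13 fragments beside an unbound promoter and 18 and 13 beside a gained one. An Rb-bound promoter of any gene lay within 10 kb of 111 members and 121 of the others.

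A distal label depends on the annotation. Of the 376 members on chromosomes of the RefSeq promoter table, 17 (4.52%, 2.84 to 7.12%) overlapped a RefSeq promoter, defined as 250 bases before to 50 after a gene start, against 10 of 380 others (2.63%, 1.44 to 4.78%). In 13 of the 17 the gene had only a provisional symbol, and the other 4 were KDM2B, KCNH2, the antisense gene GJD3-AS1 and MIR200BHG, named here after the overlaps were seen. The last is the host gene of the miR-200b cluster of epithelial microRNAs, and its region was chr1:1162509-1163421.

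Of a list of 90 cell cycle genes, 1 was nearest to a member (1.11%) and 2 to another gained distal region (2.22%). Of all 19618 coding genes, 358 were nearest to a member (1.83%) and 369 to another gained distal region (1.88%). Both shares of the cell cycle list are near this background. The cell cycle gene nearest to a member was MYBL2, which encodes the B-Myb subunit of a cell cycle activator complex, and its region 9.29 kb upstream had 23 and 22 fragments. From the oestrogen response list, 4 of 89 genes were nearest to a member (4.49%) and 11 to another gained distal region (12.4%). They were MLPH with 18 and 17 fragments, MSMB with 16 and 13, MED13L with 5 and 9 and MYB with 9 and 10, all under the height of the 15 best. MLPH encodes a melanosome transport protein, MED13L a Mediator subunit and MYB a transcription factor.

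Of 234 genes of developmental transcription factors, 13 (5.56%) were nearest to 14 members and 12 (5.13%) to another gained distal region. The shares over all coding genes were 1.83 and 1.88%, and the 2 sets of regions were close to each other in both. Developmental transcription factors pattern the embryo, and many of their genes lie in wide, gene-poor neighbourhoods with several CpG islands. The highest regions were those near NEUROD2, a neuronal factor, with 20 and 18 fragments, near FOXE1, a thyroid factor, with 21 and 14, and downstream of SP8, a limb factor, with 23 and 11. SP8 had a second region upstream with 14 and 12. Near PAX9 the values were 17 and 9, near PAX2 16 and 7, near NKX2-1 14 and 10, near DLX5 13 and 14 and near HOXA7 20 and 12. Those near BARHL2, FOXL2, IRX5, ASCL2 and RUNX3 had 7 to 9 fragments in replicate 1 and 6 to 13 in replicate 2. As a group they stood low, with a median of 14 and 10.5 fragments against 17 and 13 over all members. For 10 of the 14 the promoter of the gene itself had no peak in any library, and for 2 it was gained, at NKX2-1 and IRX5. Shares by nearest gene follow the space around a gene, and the part of that space was not tested.

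Binding-site patterns were sought on both strands of the 200-bp windows. The E2F pattern was found in 84 of 386 members (21.8%, 17.9 to 26.2%). It was in 62 of 393 gained distal regions of other sequence (15.8%, 12.5 to 19.7%) and in 1202 of 6759 promoter islands (17.8%, 16.9 to 18.7%), and the intervals of the members overlapped with both. The pattern holds a CG, which the sequence rule favours, so the promoter islands, chosen by the same rule, are the closer comparison. In windows 1 kb to either side of the members it was found in 36 of 772 (4.66%, 3.39 to 6.39%), and read backwards without complement it was in 51 of the 386 summit windows (13.2%, 10.2 to 16.96%). For the other gained distal regions the shares were 2.67% at 1 kb and 5.60% backwards (3.73 to 8.33%). For the promoter islands they were 3.48% at 1 kb and 14.7% backwards (13.8 to 15.5%). A forward share above these controls was thus not particular to the members. Among all 13729 merged regions with a peak in abemaciclib replicate 1 the forward share was 16.99%, and among the 18 distal CpG-island regions bound in all 4 libraries 7 held the pattern (38.89%, 20.3 to 61.4%).

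The E2F pattern was spread over the window. Its nearest copy lay a median of 46 bp away, and 43 of the 84 windows (51.2%, 40.7 to 61.6%) had it within 50 bp, a zone that makes up 50% of the window. Regions with the pattern had 19 and 14 fragments at the median and those without it 17 and 12. Of the 84 windows, 55 also held the SP/KLF pattern, 14 the NFY pattern and 3 the CHR pattern.

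The SP/KLF pattern GGGCGG, the GC box, was the most frequent, in 231 members (59.8%, 54.9 to 64.6%). It was in 64.8% of promoter islands (63.6 to 65.9%) and 27.7% of the other gained distal regions (23.5 to 32.4%). Read backwards it was in 66.8% of the members (62.0 to 71.4%), more often than forwards. Members with the forward pattern were higher, with medians of 18 and 14 fragments against 15 and 11 without it. They also had a higher median GC, 72% against 65%, and CpG ratio, 0.822 against 0.781. The part of base composition in the height was not tested. The NFY pattern CCAAT was in 56 members (14.5%, 11.3 to 18.4%) against 17.3% of promoter islands and 20.7% of the windows 1 kb away. Read backwards it was in 9.07% of the members, 8.77% of promoter islands and 15.9% of the windows 1 kb away. In the other gained distal regions it was in 19.85% forwards and 15.5% backwards. The lower forward share at the summits than 1 kb away was thus seen for the backward word too.

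Other patterns had shares that differed from 1 of the comparison sets and not from the other. ETS sites, spelled CCGGAAG, were in 19 members (4.92%, 3.17 to 7.56%) and in 8.82% of promoter islands (8.17 to 9.52%), with intervals that did not overlap, and in 2.80% of the other gained distal regions (1.57 to 4.94%). Forward and backward spellings were equally common in members, at 19 each. NRF1 sites, GCGCATGC, were in 11 members (2.85%, 1.60 to 5.03%) and 2.71% of promoter islands (2.35 to 3.12%), against 1 of the 393 other gained distal regions (0.254%, 0.0449 to 1.43%). Its backward spelling was in 0 members, which allows up to 0.777%, taken as 3 counts of 386 here and for the other counts of 0. The CHR pattern TTTGAA was in 14 members (3.63%, 2.17 to 5.995%), close to its 3.21% in promoter islands, against 10.4% of the other gained distal regions. It is an AT-rich word, and its share 1 kb away was 12.95%.

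Patterns of the factors that mark luminal enhancers were rare, and so were the same words read backwards. No member held an oestrogen response element, searched as GGTCA and TGACC parted by 3 bases with at most 1 mismatch, where 0 of 386 allows a share of up to 0.777%. It was in 5 of the 393 other gained distal regions (1.27%, 0.545 to 2.94%), in 26 of 6759 promoter islands (0.385%) and in 5 of 772 windows 1 kb from the members (0.648%). Forkhead sites were in 3 members (0.777%, 0.265 to 2.26%) against 3.56% of the others (2.13 to 5.89%), GATA sites in 12 (3.11%) against 6.36%, and AP-1 sites in 6 (1.55%) against 3.56%. Read backwards, the same gap was seen for the oestrogen response element, in 1 member against 9 of the others (2.29%), for the forkhead word, in 3 against 17 (4.33%), for the GATA word, in 10 against 30 (7.63%), and for AP-1, in 2 against 5 (1.27%). None of these words holds a CG, which the sequence rule selects for. The CTCF pattern was in 0 members and 4 of the others (1.02%). In 91 members none of the 11 patterns was found.

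**Figure D5:**
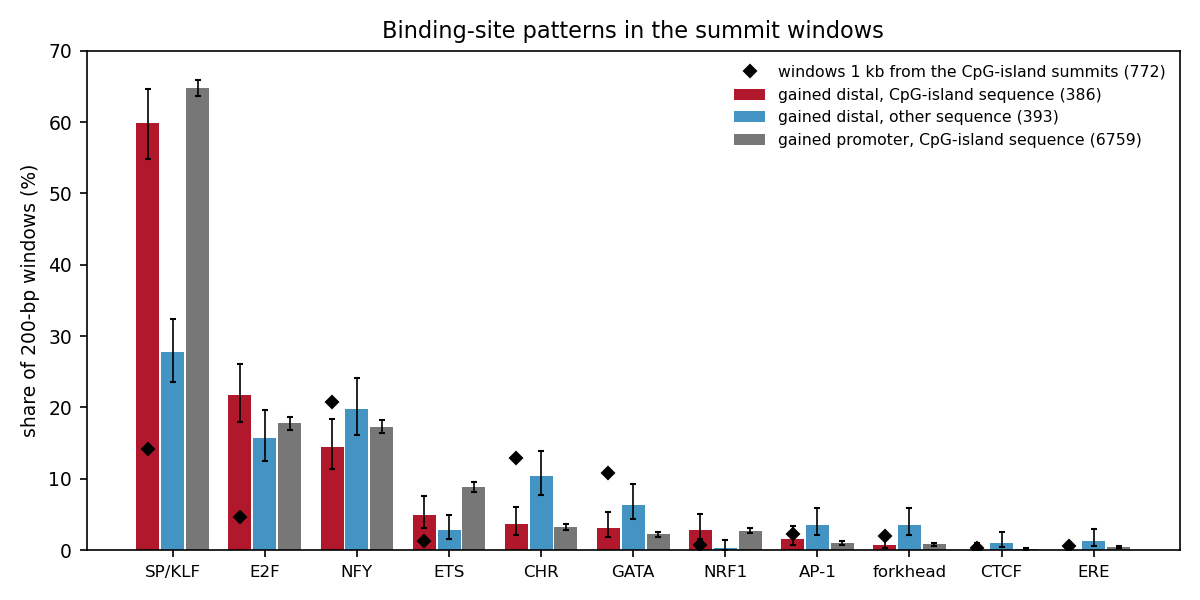
Share of 200-bp summit windows (percent, vertical) holding each of 11 binding-site patterns on either strand, for the distal CpG-island regions, the gained distal regions of other sequence and the gained promoter regions with CpG-island sequence, with Wilson 95% intervals, and black diamonds for windows 1 kb from the member summits. The members follow the promoter islands in SP/KLF (59.8 and 64.8%) and CHR (3.63 and 3.21%) and stand below them in ETS (4.92 and 8.82%).

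Within the members, summit height had weak correlations with base composition. Over 386 regions that share libraries, Spearman's rho of summit pileup was 0.107 and 0.091 with GC content, -0.039 and -0.043 with the CpG ratio and 0.067 and 0.084 with the length of the CpG-rich stretch, in replicates 1 and 2. Regions in coding exons had a median of 15 and 10 fragments and intergenic ones 19 and 13. The 11 whose CpG-rich stretch ran into a promoter window had 12 and 11.

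Rb peaks were called with IgG as control, which disfavours sites with IgG signal, so overlap with IgG2a peaks is a description only. None of the 386 members overlapped a peak of the IgG2a library, which allows up to 0.777%, and 1 of the 393 others did (0.254%). That library had 84 peaks on chromosomes 1 to 22 and X, and there was none from abemaciclib-treated cells, so a background that appears only under the drug could not be measured. Repeats were few by the measure used here: in the 500 bp around the summit, 10-base words that occurred more than once made up over 20% in 8 members. The highest shares, 91.5 and 85.7%, were near IFRD1 and LYSMD4.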

How the data were processed

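Rb and IgG2a CUT&RUN peak lists of ZR-75-1 cells were analysed. Per the methods and submitters' notes, the authors trimmed reads with BBDuk, aligned them to hg38 with Bowtie2 2.3.4.1, removed blacklisted and mitochondrial reads, kept duplicates, and called peaks per library with MACS2 2.2.7.1 at a q-value of 0.05 with IgG as control. The deposited lists give a fold enrichment (a ratio), the −log10 of a p-value and of a q-value, and a score derived from the latter. Groups follow the sample titles.

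Peaks were merged and classed with Python 3.11.15 and pysam 0.24.0, using hg38 and GENCODE 44. Location is that of the replicate 1 summit, and coding TSSs are those of protein-coding transcripts. Whole-number pileups were solved from fold and −log10 p with SciPy 1.17.1, at a tolerance of 0.002 in −log10 p, for 100% of peaks with −log10 p up to 150; the solver was tested on simulated data. Near-identical copies were sought with minimap2 2.31. Duplicates were kept, so fragments are not all independent molecules, and Wilson intervals cover counting error only. Total reads are not in the lists. The replicates of a treatment were separate cultures, per the methods.

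The members, gene lists and patterns were chosen with earlier results of these data known. Named members were the 15 best by mean rank, those nearest to listed genes, those next to the thresholds, the 3 farthest from a coding TSS and the 3 widest. One of the 15 and a few other items are not reported here. Of the oestrogen response list, WISP2 and SLC9A3R1 were not matched by symbol. No test over regions was made, and with 2 libraries per treatment no exact permutation test could pass 0.05.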

Additional observations from a re-analysis of the deposited data

How the results depend on the processing

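Each of 6 values was recomputed under up to 14 alternatives chosen with the settings above, 81 values in all. Of these, 66 stayed within 1.5 times the count of members or within the main interval of the share, and 15 did not. The promoter definition changed the most values. With promoters of protein-coding genes only, the members numbered 749, made up 58.3% of gained distal regions, were intergenic in 37.1% and lay within 10 kb of a coding TSS in 34.4%. With a promoter window of 5000 bp on both sides they numbered 206, with 60.2% intergenic, 21.4% within 10 kb and 91.3% with a passing replicate 2 window. A threshold of q at most 1e-05 gave a member share of 56.0%. GC of 55% with a CpG ratio of 0.65 gave a share of 41.5% and a replicate 2 share of 82.7%, and a 500-bp window a replicate 2 share of 97.2%. Leaving out each Rb library in turn gave 389 to 587 members, the highest without abemaciclib replicate 2, and a member share of 33.7 to 50.2%; without abemaciclib replicate 1 the count was 468. The same runs gave 43.2 to 46.1% intergenic, 42.7 to 47.2% within 10 kb and 19.2 to 22.1% with an E2F pattern. The replicate 2 share needs both abemaciclib libraries and was 87.0 to 87.1% when each DMSO library was left out. The E2F share was 19.2 to 24.3% over all alternatives. With abemaciclib replicate 2 summits 383 regions qualified, and 336 of the members were among them. In each alternative the members had a higher share of coding exons, of intergenic summits and of E2F patterns than the other gained distal regions. The intergenic shares were closest, 37.1 and 35.8%, with coding promoters only. The alternatives reuse the same libraries, and the E2F pattern holds a CG, which the sequence rule favours. With the main settings, the intergenic and E2F intervals of the sets overlapped. No paired analysis was possible because the values come from no test. Depth limits the lower end of the list: 39 members had under 10 fragments in both libraries.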
